A study of Mus musculus with 18 samples.

Results

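The acute-phase response is the change in circulating proteins that follows infection, injury or inflammation. Interleukin 6, interleukin 1 and tumor necrosis factor drive it, chiefly in the liver, through the transcription factors STAT3, C/EBP and NF-kB. Several of its proteins are also made outside the liver, in fibroblasts, epithelium and macrophages. The members described here were 9 genes of this response, namely Saa1, Saa2, Saa3, Lcn2, Steap4, C3, Hp, Ptx3 and Il6, out of 46078 genes in the RNA-seq table. They were chosen with expression results of these tumors in view, because Saa3 and Steap4 were among the genes with the largest rises in the mutant tumors. The expression differences from the control are therefore given for the members as a description without a test. Of the 9 genes, 7 passed the filter on low counts, and Saa1 and Saa2 did not. Accessible regions were described through the 84 of 111664 ATAC-seq peaks that lay within 50000 bp of a member gene.

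RNA-seq, which counts transcripts, and ATAC-seq, which counts reads from accessible chromatin, had been run on lung tumors of mice of 3 genotypes. All groups carried conditional alleles of the same tumor suppressors, among them Rb1L/L and a member of its family that the labels give as Rbl1L/L and the methods as Rbl1 or Rbl2 (TKO, the control). The second group also carried Carm1L/L, a conditional allele of the arginine methyltransferase CARM1 (CARM1 knockout), and the third group NfibR388K, a lysine in place of an arginine of the transcription factor NFIB (NFIB mutant). Adenovirus-Cre had been given into the airways at 8 weeks of age and tumors were taken 28 weeks later, from 3 animals for each genotype. Cre from an adenovirus recombines the conditional alleles in whichever airway cells it enters, whereas the Nfib allele was made by CRISPR/Cas9 in the germ line and is not conditional. The labels call the samples small cell lung cancer cells. The sources differ on how they were obtained, since RNA is described in 1 place as coming from cells sorted by a Cre-activated tdTomato reporter and in another as coming from the tumor biopsies that also gave the ATAC-seq libraries.

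The assigned reads numbered 15848866 to 20915057 for each RNA-seq library and 26917178 to 47653979 for each ATAC-seq library. Carm1 read 97.6, 103 and 44.5 CPM (counts per 1000000 reads, scaled by the trimmed mean of M-values, TMM) in the TKO libraries and 63.3, 79.0 and 50.7 CPM in the CARM1 knockout libraries, which overlapped. These counts cover the whole gene and do not separate a deleted part, so they do not check the labels. The 12 marker genes of neuroendocrine small cell lung cancer summed to 1851 to 4107 CPM in TKO and to 1889 CPM in CARM1 knockout replicate 3, but to 33.5 to 188 CPM in the other 5 mutant libraries. Most of what remained of the sum in those 5 libraries was Ncam1, at 148.6 CPM in CARM1 knockout replicate 2 and 14.2 to 46.6 CPM in the other 4, and Uchl1, at 3.36 to 33.3 CPM. CARM1 knockout replicate 3 stood apart from the other mutant libraries. Fibroblast markers, 8 genes, summed to 17.1 to 66.4 CPM in TKO and to 10098 to 26717 CPM in the mutant libraries. A sort on the reporter would remove fibroblasts that Cre had not reached, but the sources differ on whether these cells were sorted. In such bulk samples a smaller share of cells of a type and less RNA in each cell cannot be told apart. The part of these differences in cell content in the results below was not tested.

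Saa1, Saa2 and Saa3 encode serum amyloid A proteins, apolipoproteins that rise steeply in an acute-phase response, Saa1 and Saa2 mainly from the liver and Saa3 mainly from other tissues. Lcn2 encodes lipocalin 2, which binds bacterial siderophores, and Hp encodes haptoglobin, which binds free hemoglobin. Steap4 encodes a metalloreductase induced by inflammatory cytokines. C3 is the central component of complement, Ptx3 a secreted pattern-recognition protein, and Il6 the cytokine itself. The promoters are shown first because every member promoter in the table used held the same short motif. RefSeq promoter sequences (GRCm38.p6, 250 bases before the start site to 50 after it) matched 8 members, all but Hp. The motif TTGCNNAA, a core bound by C/EBP factors, was searched on both strands and was found in 8 of 8 member promoters. It was found in 10.8% of all 32851 promoters of that length. A match is a description of letters and not of binding, and the promoters of Saa1 and Saa2 are copies of a shared ancestor. Positions are counted from the RefSeq start sites, which differ from those of the count table for some genes, and that of Lcn2 lies inside the gene as given below. The match began between 45 bases (C3) and 216 bases (Lcn2) upstream of the start site, and the 30 bases around it are given below on the strand of each gene, with the match in capitals.
Saa1, chr7:46743144-46743173, minus strand: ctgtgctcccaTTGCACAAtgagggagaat
Saa2, chr7:46751639-46751668, plus strand: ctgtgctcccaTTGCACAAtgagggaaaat
Saa3, chr7:46715757-46715786, minus strand: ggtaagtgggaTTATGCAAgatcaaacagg
Lcn2, chr2:32387937-32387966, minus strand: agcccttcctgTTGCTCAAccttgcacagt
Steap4, chr5:7960374-7960403, plus strand: cacagctcctcTTGCGAAAtcaagcgggcc
C3, chr17:57228163-57228192, minus strand: aggaaactatgTTGCGAAAttttgggcagt
Ptx3, chr3:66219819-66219848, plus strand: gtggtttaacaTTGTGCAAcctcttcagct
Il6, chr5:30012975-30013004, plus strand: acgacgtcacaTTGTGCAAtcttaataagg

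Longer stretches, from 250 to 31 bases upstream of the start site, are given for the pair of genes that led to the choice of the members. The C/EBP match is in capitals.
Saa3, chr7:46715707-46715926, minus strand: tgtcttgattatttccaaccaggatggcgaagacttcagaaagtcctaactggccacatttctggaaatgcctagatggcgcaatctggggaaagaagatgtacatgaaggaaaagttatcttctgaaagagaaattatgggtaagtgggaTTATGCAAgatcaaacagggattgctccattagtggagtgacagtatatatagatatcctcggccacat
Steap4, chr5:7960222-7960441, plus strand: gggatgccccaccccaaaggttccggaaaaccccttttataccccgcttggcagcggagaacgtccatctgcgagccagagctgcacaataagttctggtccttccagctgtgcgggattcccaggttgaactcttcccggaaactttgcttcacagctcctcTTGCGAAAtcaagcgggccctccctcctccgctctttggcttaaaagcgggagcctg
Of the other motifs searched in these promoters on both strands, the 10-letter NF-kB consensus was in those of Steap4, Il6 and Ptx3, 3 of 8, against 8.46% of all promoters. The STAT motif TTCNNNGAA was in that of Steap4 alone among the 8, 116 bases upstream of the start site, against 8.30% of all promoters. The AP-1 motif TGANTCA was in that of Il6 alone among the 8, against 7.81%. The full palindromic NFI site was in none of the 8 and in 0.0365% of all promoters. Its core TTGGC, which the full site contains, was in 4 of the 8 and in 46.7% of all promoters.

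Saa3, Steap4, Lcn2, C3, Hp, Ptx3 and Il6 were low in the TKO tumors, at most 0.720 CPM apart from C3, and higher in every tumor of both mutant genotypes. In each of these 7 genes the lowest mutant library was above the highest TKO library. That was so for 22.3% of all 15514 genes tested. Nothing is read from this share, since the members were chosen on the same contrasts. The CARM1 knockout and the NFIB mutant were compared with the same 3 TKO libraries.

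**Figure D1:**
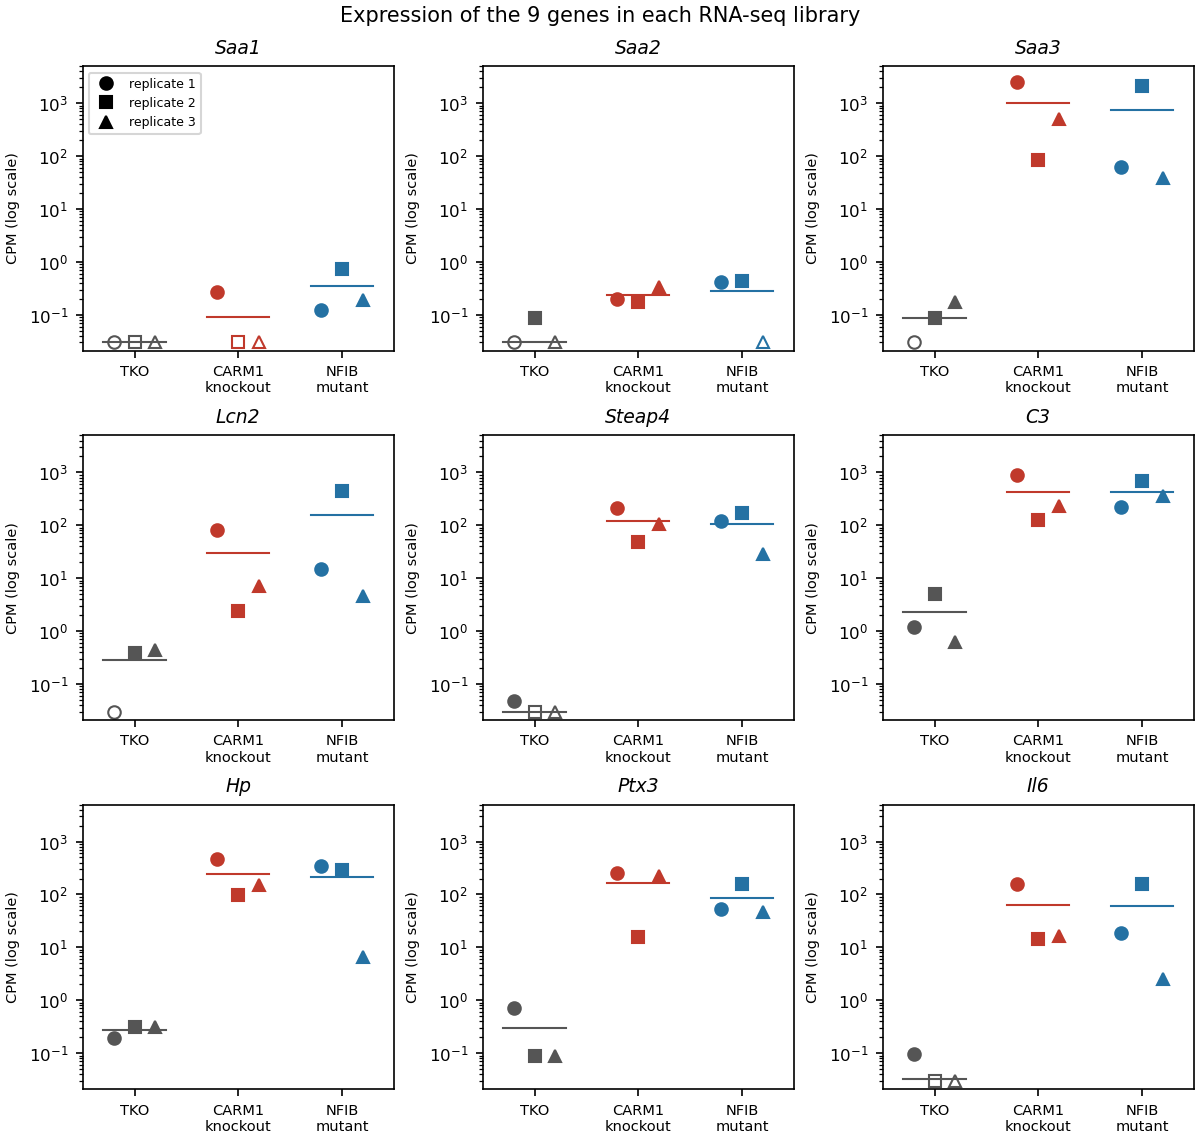
CPM on a log scale in each RNA-seq library, with TKO in grey, CARM1 knockout in red and NFIB mutant in blue, a symbol for each replicate number and a line at each group mean. Open symbols and lines at 0.03 CPM stand for 0 or a lower value. The 6 mutant libraries lie above all TKO libraries for 7 genes, and Saa1 and Saa2 stay under 1 CPM.

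Saa3 (ENSMUSG00000040026, GRCm38 chr7:46711998-46715700, minus strand) read 0, 0.0873 and 0.177 CPM in TKO replicates 1 to 3, from 0, 2 and 4 reads. It read 2500.3, 85.9 and 505 CPM in the CARM1 knockout and 62.6, 2091 and 38.4 CPM in the NFIB mutant. CARM1 knockout replicate 1 and NFIB mutant replicate 2 were far above the other 4 mutant libraries, and the levels of the 2 genotypes overlapped throughout. The ratio of mean CPM to TKO was 11697 in the CARM1 knockout, with a 95% exact Poisson interval of 5374 to 31874 for the 6 TKO reads. It was 8295 in the NFIB mutant, with an interval of 3811 to 22602. These intervals cover counting error only. They leave out the spread among tumors, which was 29.1-fold from the lowest to the highest CARM1 knockout library and 54.5-fold among NFIB mutant libraries.

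Saa1 (ENSMUSG00000074115, chr7:46740497-46742980) and Saa2 (ENSMUSG00000057465, chr7:46751790-46754313), which lie upstream of Saa3 in the same cluster, stayed under 1 CPM in every library. Saa1 had 0 reads in every TKO library and 0 to 4 in the CARM1 knockout. In the NFIB mutant it had 2, 12 and 3. Saa2 had 0 to 2 reads in TKO, 3 to 6 in the CARM1 knockout, and 7, 7 and 0 in the NFIB mutant. A count of 3 reads corresponded to 0.131 to 0.203 CPM, so most of these values were at or near the limit of detection and no fold is given. The longest transcripts of Saa1 and Saa2 share 51 windows of 50 bases exactly, 9.11% of the windows of Saa1. Reads from such windows cannot be assigned to either gene, and neither transcript shares a window with that of Saa3.

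Steap4 (ENSMUSG00000012428, chr5:7960457-7982213, plus strand) had 1, 0 and 0 reads in the TKO libraries. It read 209, 48.2 and 104 CPM in the CARM1 knockout and 120.2, 173 and 29.0 CPM in the NFIB mutant. All 6 mutant libraries were within 7.23-fold of each other, a narrower range than for Saa3. Against the limit of 3 reads for each TKO library, the mean was at least 888-fold higher for the CARM1 knockout tumors, and for those of the NFIB mutant at least 791-fold higher.

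C3 (ENSMUSG00000024164, chr17:57203970-57228136, minus strand) was the only one of the 7 with a mean above 1 CPM in TKO, at 1.20, 4.98 and 0.619 CPM. It read 909, 127 and 233 CPM in the CARM1 knockout and 217, 701 and 364 CPM in the NFIB mutant. The ratio of means was 187 and 189 in that order, with a TKO mean that rests on replicate 2. The log2 fold change was 7.54 and 7.55, 8.85 and 8.87 without that library, and 6.31 in the CARM1 knockout without its replicate 1. Between the lowest and highest mutant library C3 varied 7.14-fold, the smallest such range of the 7 genes.

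Hp (ENSMUSG00000031722, chr8:109575128-109579172, minus strand) read 0.192, 0.306 and 0.310 CPM in TKO. In the CARM1 knockout it read 475, 96.0 and 151 CPM. In the NFIB mutant replicates 1 and 2 were high, at 346 and 285 CPM, and replicate 3 was low, at 6.47 CPM. The SD of the NFIB mutant, 181 CPM on a mean of 212 CPM (n = 3), rests on that library.

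Lcn2 (ENSMUSG00000026822, chr2:32384633-32388252, minus strand) read 0, 0.393 and 0.442 CPM in TKO. It read 81.7, 2.45 and 7.07 CPM in the CARM1 knockout and 14.7, 442 and 4.5 CPM in the NFIB mutant. It was the most uneven of the 7 genes, with a 181-fold range over the 6 mutant libraries.

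Ptx3 (ENSMUSG00000027832, chr3:66219910-66225805, plus strand) read 0.720, 0.0873 and 0.0885 CPM in TKO. In the CARM1 knockout it read 258, 15.7 and 220.0 CPM, and in the NFIB mutant 53.8, 155 and 46.7 CPM. Replicate 2 of the CARM1 knockout was the lowest mutant library for this gene, as it was for Lcn2 and C3.

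Il6 (ENSMUSG00000025746, chr5:30013114-30019981, plus strand) had 2, 0 and 0 reads in the TKO libraries. It read 159, 14.7 and 16.3 CPM in the CARM1 knockout and 18.9, 160 and 2.47 CPM in the NFIB mutant. A single library of each mutant genotype held most of the transcript, CARM1 knockout replicate 1 and NFIB mutant replicate 2. The mean was at least 465-fold and at least 444-fold higher than the limit of 3 reads for each TKO library. Per kilobase of exon, the mean levels in the CARM1 knockout were 395 CPM for Saa3, 150 CPM for Hp, 82.2 CPM for C3, 61.3 CPM for Ptx3, 38.2 CPM for Steap4, 26.0 CPM for Il6 and 11.6 CPM for Lcn2. In the NFIB mutant Saa3 at 280 CPM and Hp at 132 CPM were again first, and Lcn2 at 58.7 CPM stood above Steap4, Ptx3 and Il6. Given SDs as large as the means in several genes, neighbours in these orders did not differ beyond their spread.

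The comparison of the CARM1 knockout with the NFIB mutant was not used to choose the members and could be tested. None of the 7 genes differed between these genotypes in the edgeR quasi-likelihood test. None had an unadjusted p under 0.05, and DESeq2 called none. Over all genes 0% were called, 9.12% had an unadjusted p under 0.05 and DESeq2 called 540. The log2 difference, CARM1 knockout over NFIB mutant, was 0.50 ± 1.57 (SE) for Saa3, -2.34 ± 1.82 for Lcn2, 0.17 ± 0.71 for Steap4 and -0.02 ± 0.91 for C3. It was 0.18 ± 1.10 for Hp, 0.95 ± 1.0 for Ptx3 and 0.07 ± 1.42 for Il6 (3 libraries for each genotype, adjusted p 0.748 to 1). With standard errors of 0.71 to 1.82, differences of several fold in either direction were not detectable in 3 tumors for each genotype. Leaving out CARM1 knockout replicate 1 turned the sign for Saa3, to -1.31, for Il6, to -1.96, for Steap4, to -0.50, and for Hp, to -0.78. Leaving out NFIB mutant replicate 2 turned that for Lcn2, to 1.66, and for C3, to 0.54. Without CARM1 knockout replicate 3, the library that stood apart, the sign of C3 turned, to 0.29, and none of the 7 was called.

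The levels of the genes are compared here from tumor to tumor. CARM1 knockout replicate 1 was among the 2 highest of the 6 mutant libraries for all 7 genes, and NFIB mutant replicate 2 for 5 of 7. The lowest of the 6 was NFIB mutant replicate 3 for 4 genes and CARM1 knockout replicate 2 for 3 genes. All 21 pairs of genes had a positive Pearson correlation of log2 CPM over the 6 mutant libraries, from 0.24 to 0.92 with a median of 0.74. These correlations describe 6 tumors of 2 genotypes and share their libraries.

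Over the same 6 libraries, the 5 genes most like Saa3 in log2 CPM, among 11117 genes with a mean of at least 5 CPM, were Dsn1, Spata2, Fth1, Arhgef6 and Cxcl1 (r from 0.970 to 0.993). Dsn1, a kinetochore component, and Spata2 varied little among them, from 26.6 to 32.8 CPM and from 29.4 to 39.8 CPM, and Dsn1 was higher in TKO, at 77.5 to 135 CPM. Fth1, the ferritin heavy chain that stores iron, ranged from 1574 to 3997 CPM. Cxcl1, a chemokine that attracts neutrophils, had the widest range, from 8.50 CPM in NFIB mutant replicate 3 to 262 CPM in CARM1 knockout replicate 1. Over all 9 libraries the first 5 were Fth1, Riok3, Zc3h12a, Dnmt3l and Tfec (r from 0.981 to 0.996). Zc3h12a encodes an RNase that degrades the mRNAs of Il6 and other cytokines. It read 0.349 to 1.06 CPM in TKO and 12.2 to 88.4 CPM in the mutant libraries. Among the members, Il6 followed Saa3 most closely over the 6 libraries (r = 0.90, rank 81 of the 11117 genes) and Hp least (r = 0.65, rank 965). Steap4, Lcn2, Ptx3 and C3 ranked 277, 339, 342 and 603.

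Markers of the cell types known to make these proteins are given beside these levels. The 8 hepatocyte markers summed to 5.85 to 25.9 CPM in TKO and to 0.841 to 3.39 CPM in the mutant libraries, and most of the TKO sum was Ttr, at 5.23, 3.49 and 23.5 CPM. Of the 2 tested, Ttr was called lower and Apob higher in both mutants, Apob at 0.449 to 0.850 CPM. Of the 10 neutrophil markers, 6 were at or under 3 reads in every library, and S100a9 was listed at 0 in all 9. S100a8 alone was sizeable, at 61.4 CPM in NFIB mutant replicate 2, the library with the most Lcn2. The 11 markers of macrophages and other leukocytes summed to 4.82 to 57.5 CPM in TKO, to 929, 187 and 2594 CPM in the CARM1 knockout and to 435, 418 and 27.1 CPM in the NFIB mutant, with Cd3e at 0. Of the 435 CPM in NFIB mutant replicate 1, Lyz2 was 403 CPM and Ptprc, the pan-leukocyte marker, 0.364 CPM, against 25.7 CPM of Ptprc in replicate 2. Over the 6 mutant libraries their sum had r = 0.65 with Saa3 in log2 CPM, the neutrophil sum 0.59 and the endothelial sum 0.69. The fibroblast sum was high in all 6 mutant libraries, with r = -0.00095, and the sums of the mesothelial, lung epithelial and hepatocyte markers had r = -0.74, -0.15 and 0.33. Mesothelial markers, 6 genes, summed to 0.575 to 49.1 CPM in TKO, 8.53 to 120 CPM in the CARM1 knockout and 99.6 to 813 CPM in the NFIB mutant, where Krt19, also a keratin of other epithelia, was 718 of the 813 CPM in replicate 1. Lung epithelial markers, 10 genes, summed to 286 to 630.4 CPM in TKO, of which Nkx2-1 was 236 to 600.1 CPM, and to 2.85 to 2284 CPM in the mutant libraries. NFIB mutant replicate 1 stood apart, with 1734 CPM of Sftpb and 126 CPM of Sftpc, both surfactant proteins. Endothelial markers, 6 genes, summed to 5.85 to 21.2 CPM in TKO and 1.82 to 73.8 CPM in the mutant libraries. What part these cells have in the levels was not tested.

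Genes were called at an adjusted p under 0.1 (edgeR quasi-likelihood test, Benjamini-Hochberg) and a log2 fold change of at least 0.8. The inducers and relays of the response were examined through 6 lists of 132 genes, of which 101 were tested. The lists were chosen with earlier results of these data known. Their counts, medians and p-values against TKO, here and below, are therefore a description and not independent support. In the CARM1 knockout 62 were called higher and 8 lower, and in the NFIB mutant 64 higher and 7 lower. The median log2 fold change of the 101 was 2.62 and 2.67, against -0.03 and -0.05 over all genes tested. Of all genes, 20.5% and 22.3% were called higher and 18.3% and 23.5% lower. Without CARM1 knockout replicate 3, 55 were called higher and 4 lower in the CARM1 knockout. None of the 101 was called between the mutant genotypes by edgeR, 6 had an unadjusted p under 0.05, and DESeq2 called 5.

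**Figure D2:**
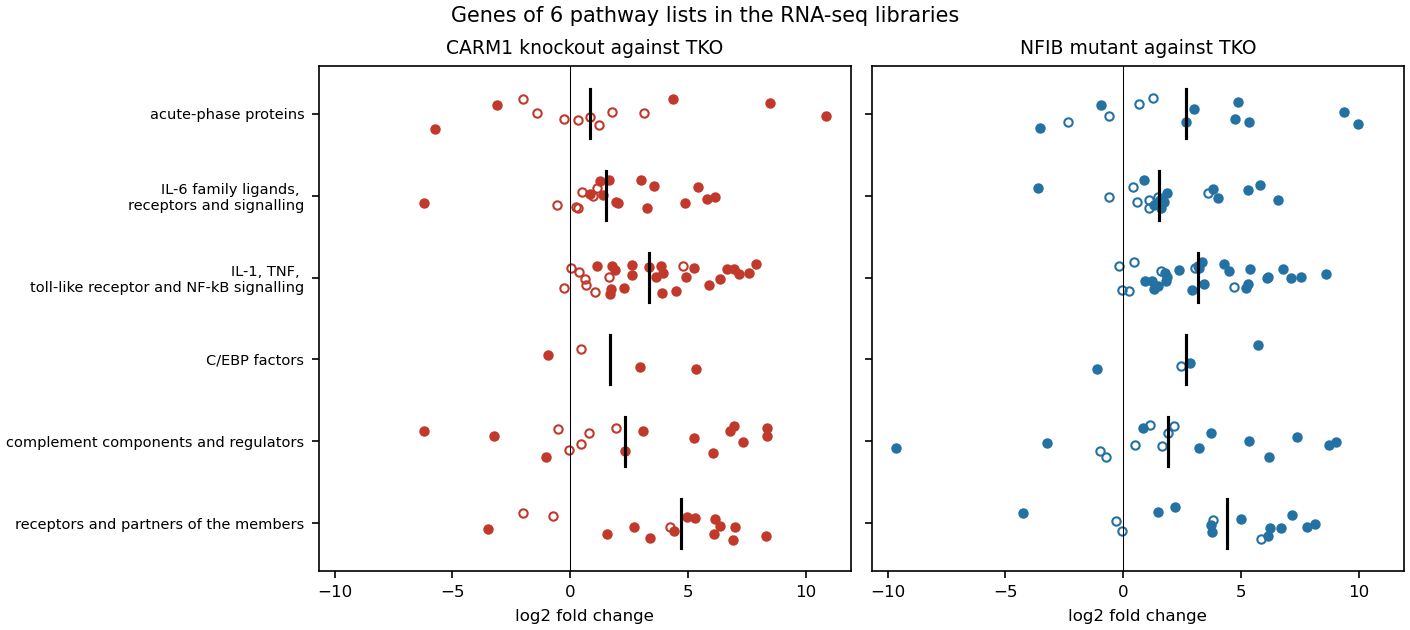
Log2 fold change of each tested gene of 6 lists in the CARM1 knockout (left, red) and the NFIB mutant (right, blue) against TKO, with open symbols for genes not called and a black bar at the median of each list. The lists of NF-kB signalling and of receptors lie mostly to the right of 0, and each list holds genes near or below 0.

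In the IL-6 family list, of 20 genes tested, 13 were called higher and 1 lower in the CARM1 knockout, and 12 and 1 in the NFIB mutant. Il6ra, the ligand-binding receptor of IL-6, rose from 2.25 ± 1.05 CPM (SD, n = 3) in TKO to 27.0 and 31.8 CPM, by 3.58 ± 0.37 and 3.81 ± 0.37 (SE) on the log2 scale (edgeR adjusted p = 0.000820 and 0.000508). Il6st, the signalling chain shared by the family, rose by 1.94 ± 0.47 and 1.6 ± 0.46 (adjusted p = 0.0163 and 0.0260). Osmr, the receptor of oncostatin M, rose from 4.42 CPM to 191 and 249 CPM. The ligands Lif and Il11 rose as well, Lif from 0.487 to 4.51 CPM in TKO to 219, 95.4 and 9.70 CPM in the CARM1 knockout and 42.7, 169 and 15.7 CPM in the NFIB mutant. Il11 rose from 0.119 CPM to 8.90 and 11.8 CPM, with 0.561 CPM in CARM1 knockout replicate 3 and 0.888 CPM in NFIB mutant replicate 3. Stat3 itself was not called, with 241 CPM in TKO, 283 CPM in the CARM1 knockout and 365 CPM in the NFIB mutant. Its feedback inhibitor Socs3 rose by 1.38 ± 0.57 and 1.84 ± 0.57 (adjusted p = 0.0914 and 0.0347). Cntfr, the receptor of ciliary neurotrophic factor, fell from 74.4 CPM to 1.01 and 6.10 CPM.

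The list of IL-1, TNF, toll-like receptor and NF-kB signalling had 31 genes tested. Of these, 23 were called higher in the CARM1 knockout and 24 in the NFIB mutant, and none lower. Il1r1, the IL-1 receptor, rose from 0.461 CPM to 113 and 183 CPM, by 7.90 ± 0.89 and 8.61 ± 0.91 (adjusted p = 0.00112 and 0.000770). Cd14, a co-receptor for lipopolysaccharide, rose from 1.26 CPM to 127 and 236 CPM, the latter mean from 107, 548 and 54.2 CPM. Among the cytokines, Il33 rose from at most 6.62 CPM in TKO to 443, 1040 and 19.4 CPM in the CARM1 knockout and 276, 699 and 105.0 CPM in the NFIB mutant, while Il1b reached 5.35 and 4.12 CPM, most of it in CARM1 knockout replicate 3 at 12.4 CPM and NFIB mutant replicate 2 at 11.7 CPM, and Tnf, not called, 1.41 and 1.33 CPM. The transcription factor subunits Nfkb1 and Rela rose by 2.29 ± 0.34 and 1.15 ± 0.21 in the CARM1 knockout and by 2.35 ± 0.35 and 1.5 ± 0.21 in the NFIB mutant. Nfkbiz, an inducible co-factor of NF-kB at Lcn2 and Il6, rose from 6.87 CPM to 107 and 154 CPM, highest in CARM1 knockout replicate 1 at 192 CPM and NFIB mutant replicate 2 at 267 CPM.

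The C/EBP list had 4 genes tested. Cebpb and Cebpd, the members of the family that inflammatory cytokines induce, rose. Cebpd went from 5.95 ± 4.15 CPM in TKO to 241 and 317 CPM, by 5.34 ± 0.79 and 5.73 ± 0.80 (adjusted p = 0.00286 and 0.00183). Cebpb went from 34.7 CPM to 268 and 251 CPM, by 2.95 ± 0.53 and 2.85 ± 0.53. Cebpg, a shorter family member that lacks an activation domain, fell from 111 CPM to 58.1 and 51.8 CPM.

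The other acute-phase proteins were mixed. Of 27 listed genes, 14 were too low to test, and none of these passed 11.6 CPM in any library. Apcs and Fgg had no reads in any library. Of the 13 tested, 3 were called higher and 2 lower in the CARM1 knockout, and 7 higher and 2 lower in the NFIB mutant. Of all genes tested, 20.5% and 22.3% were called higher and 18.3% and 23.5% lower. The counts in the CARM1 knockout were near those shares. The median log2 fold change of the 13 was 0.85 and 2.67, against -0.03 and -0.05 over all genes tested. Ceruloplasmin (Cp), the copper-carrying ferroxidase, rose from 11.2 CPM to 232 and 332 CPM. Serping1, the inhibitor of complement C1, rose from 0.178 CPM to 123.4, 10.7 and 66.7 CPM in the CARM1 knockout and a mean of 187 CPM in the NFIB mutant. Serpina3g rose from 0.0295 CPM to 133, 15.4 and 60.0 CPM in the CARM1 knockout and a mean of 24.2 CPM in the NFIB mutant, a member of a cluster of near copies whose reads may be shared. The metal-binding Mt2 read 12.5, 43.0 and 79.9 CPM by genotype and was called only in the comparison of the NFIB mutant with TKO (adjusted p = 0.0514, against 0.160), without a call between the mutants.

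Complement genes around C3 were mixed, also within the classical pathway. Of 17 tested, 9 were called higher and 3 lower in the CARM1 knockout, and 8 and 2 in the NFIB mutant. C1ra and C1s1, the proteases of the classical pathway, rose from 0.493 and 0.321 CPM to 80.1 and 108 CPM in the CARM1 knockout and to 83.4 and 137 CPM in the NFIB mutant, with near copies of both in the genome. C4b, a component of the classical pathway, rose from 2.88 CPM to 109 and 115 CPM, highest in CARM1 knockout replicate 1 at 224 CPM. C2, also of the classical pathway, was not called, at 0.590, 0.801 and 0.840 CPM by genotype. Cfb, needed with C3 for the alternative pathway, was too low to test at 0.133, 0.349 and 0.573 CPM. C1qa, C1qb and C1qc, made mostly by macrophages, were called higher in the CARM1 knockout, at means of 67.4, 80.6 and 35.0 CPM but at most 5.18 CPM in replicate 2, in the genotype where the leukocyte markers also reached their highest sum. In the NFIB mutant they were not called, at 1.33, 2.46 and 1.64 CPM, and the difference between the mutants was not called. Vtn, vitronectin, fell from 70.7 CPM to 0.945 and 0.0812 CPM, but the TKO libraries read 1.68, 207 and 3.01 CPM, so the TKO mean rests on replicate 2. Cd46 fell from 5.80 CPM to 0.605 and 0.615 CPM.

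Of 16 tested receptors and partners of the members, 12 were called higher and 1 lower in the CARM1 knockout, and 11 and 1 in the NFIB mutant. The 3 other genes of the Steap family were called higher. Steap1 rose from 0.273 CPM to 87.4 and 79.2 CPM, and Steap2 from 2.56 CPM to 182 and 182 CPM. Steap3 rose by 2.70 and 3.77 on the log2 scale. C3ar1, the receptor of the C3a fragment, rose from 0.523 CPM to 53.4, 3.78 and 49.6 CPM in the CARM1 knockout and 5.22, 129 and 27.3 CPM in the NFIB mutant, whose mean rests on replicate 2. C5ar1, the receptor of the C5a fragment, rose by 7.01 ± 2.56 and 7.18 ± 2.57 on the log2 scale. It read 6.50, 1.80 and 6.28 CPM in the CARM1 knockout and 0, 16.2 and 0.127 CPM in the NFIB mutant, where replicate 2 held nearly all of it and also had the most Itgam of the 3, a myeloid integrin, at 186 CPM. Mmp9, whose protein binds lipocalin 2, rose from 0.286 CPM to 11.6 and 64.4 CPM. These means rest on single libraries, at 3.99, 0.990 and 30.0 CPM in the CARM1 knockout and 2.73, 188 and 1.90 CPM in the NFIB mutant. Slc22a17, a receptor of lipocalin 2, fell from 76.1 CPM to 6.68 and 3.99 CPM.

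Chromatin around the members was compared in the ATAC-seq libraries, whose values had no role in the choice of genes. The tumors were those used for RNA-seq, so the assays are not independent samples. Peaks were called at an adjusted p under 0.1 and a log2 fold change of at least 0.5. Of the 84 peaks, 45 opened and 9 closed in the CARM1 knockout against TKO, 53.6% and 10.7%, where 38.7% and 32.4% of all 111116 peaks tested did. In the NFIB mutant 42 opened and 9 closed, 50% and 10.7%, against 39.3% and 34% of all peaks. The median log2 fold change of the 84 was 1.11 and 1.17, against 0.22 and 0.22 over all peaks. Opening in both mutants was called for 38 of the 84, against 35% of all peaks, and closing in both for 9, against 30.8%. Without CARM1 knockout replicate 3, 44 opened and 9 closed in the CARM1 knockout. The windows of Saa1, Saa2 and Saa3 overlap and hold 20 distinct peaks, 13 of them common to all 3 windows.

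At the start site, 6 members had a peak that was called higher in both mutants, Saa3, Steap4, C3, Hp, Ptx3 and Il6. In these 6 every mutant library was above every TKO library, as it was in 33.1% of all peaks tested. Lcn2 had a start-site peak that was not called, and the peaks nearest to Saa1 and Saa2 lay 1280 and 1501 bp downstream of the start site and were not called. Without CARM1 knockout replicate 3, the peaks nearest to Saa1 and Saa2 were called higher in that genotype, by 1.13 and 0.96 on the log2 scale (edgeR adjusted p = 0.0847 and 0.0766).

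**Figure D3:**
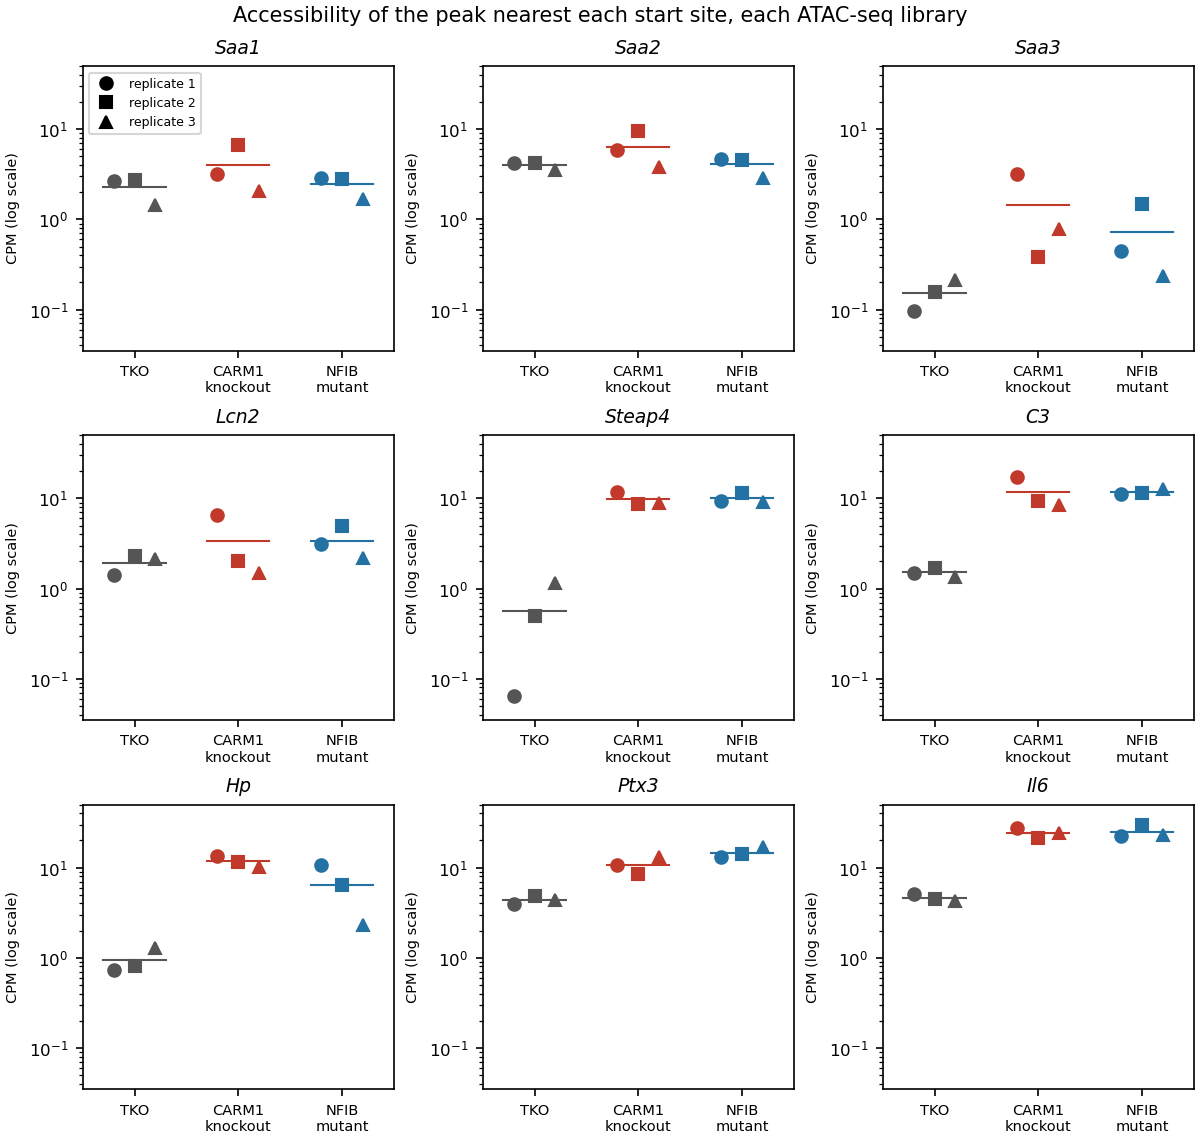
CPM on a log scale of the ATAC-seq peak nearest the start site of each gene in each library, with TKO in grey, CARM1 knockout in red and NFIB mutant in blue, a symbol for each replicate number and a line at each group mean. The mutant libraries lie above all TKO libraries for Saa3, Steap4, C3, Hp, Ptx3 and Il6 and overlap them for Saa1, Saa2 and Lcn2.

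The Steap4 peak (chr5:7959873-7960938), over the start site, went from nearly closed to open. It read 0.0637, 0.494 and 1.14 CPM in TKO, 11.9, 8.71 and 8.87 CPM in the CARM1 knockout and 9.44, 11.6 and 9.20 CPM in the NFIB mutant. The rise was 4.14 ± 0.70 and 4.18 ± 0.70 on the log2 scale (edgeR adjusted p = 0.000677 and 0.000580). It was the largest called change among the peaks around Steap4. The C3 start-site peak (chr17:57226977-57229249) rose from 1.5, 1.70 and 1.35 CPM to 8.46 to 17.4 CPM over the 6 mutant libraries, by 2.95 ± 0.37 and 2.96 ± 0.37 (adjusted p = 0.000135 and 0.000116).

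The Hp start-site peak (chr8:109578410-109579947) read 0.733, 0.804 and 1.27 CPM in TKO and 13.4, 11.6 and 10.2 CPM in the CARM1 knockout. In the NFIB mutant it read 10.7, 6.42 and 2.31 CPM, lowest in replicate 3, the library with the least Hp transcript. The rise was 3.65 ± 0.56 and 2.80 ± 0.54 (adjusted p = 0.000403 and 0.00129). The Il6 start-site peak (chr5:30012262-30014154) was already accessible in TKO at 5.13, 4.45 and 4.22 CPM, where Il6 transcripts were at 0 to 2 reads. It rose to 21.4 to 29.7 CPM in all 6 mutant libraries, by 2.39 ± 0.22 and 2.45 ± 0.22 (adjusted p = 2.82e-05 and 2.25e-05). The Ptx3 peak (chr3:66219353-66221749) rose less, from 3.98, 4.82 and 4.35 CPM to 8.46 to 16.9 CPM, by 1.30 ± 0.28 and 1.74 ± 0.29 (adjusted p = 0.00272 and 0.000540).

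The Saa3 start-site peak (chr7:46715672-46716144) was weak in all libraries. It had 3, 5 and 5 reads in TKO, 122, 20 and 32 in the CARM1 knockout and 15, 62 and 12 in the NFIB mutant, or 0.0956, 0.155 and 0.211 CPM, then 3.15, 0.384 and 0.774 CPM, then 0.448, 1.49 and 0.235 CPM. The 2 libraries with the most Saa3 transcript had the most accessible start site. The rise was 3.21 ± 0.97 and 2.23 ± 0.96 (adjusted p = 0.0138 and 0.0586). Without CARM1 knockout replicate 1, which held most of its reads, the value in that genotype was 1.91. The call in the NFIB mutant was lost without NFIB mutant replicate 2 (1.14, adjusted p = 0.315), without TKO replicate 1 (1.98, adjusted p = 0.149) and without TKO replicate 2 (2.25, adjusted p = 0.121). That call was also lost with replicate number as a block. The Lcn2 start-site peak (chr2:32387433-32388586) read 1.40, 2.32 and 2.11 CPM in TKO, 6.51, 2.02 and 1.5 CPM in the CARM1 knockout and 3.11, 4.93 and 2.16 CPM in the NFIB mutant. The groups overlapped, and the difference was 0.78 ± 0.59 and 0.80 ± 0.59 (adjusted p = 0.262 and 0.243). Scaled by library totals alone, this peak was called in both mutants.

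**Figure D4:**
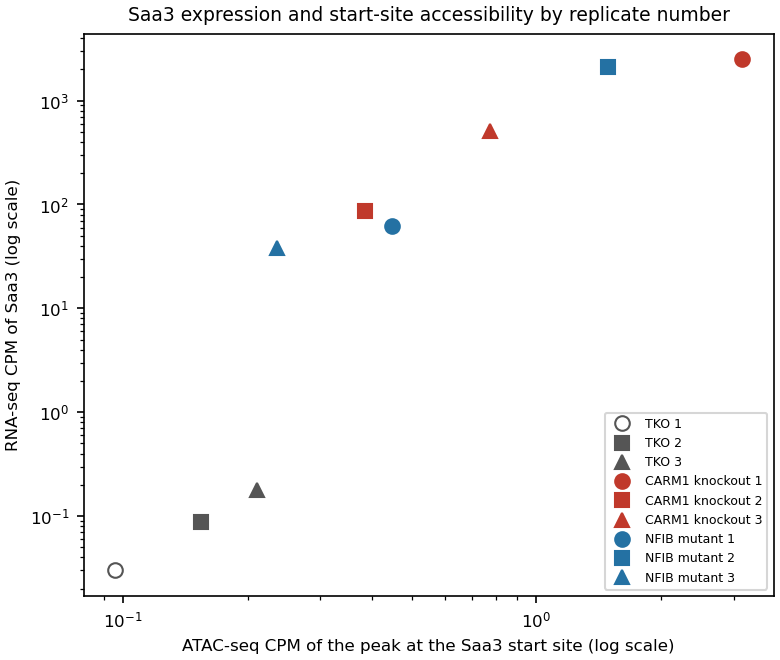
Saa3 RNA-seq CPM against ATAC-seq CPM of its start-site peak, both on log scales, for each genotype and replicate number. TKO lies at the lower left, the open symbol at 0.03 CPM stands for 0, and CARM1 knockout replicate 1 and NFIB mutant replicate 2 lie at the upper right.

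Libraries of the same replicate number in both assays matched. In 9 of 9 RNA-seq libraries, deviations of expression from the genotype mean correlated best with the start-site peak deviations of the ATAC-seq library of the same number (r from 0.46 to 0.67 across 12750 genes, against at most 0.05 for another number). With libraries joined in this way, Saa3 transcript and its start-site peak had r = 0.96 in log2 CPM over the 6 mutant libraries. The 8 peaks from 11892 bp upstream to 4936 bp downstream of the Saa3 start site, a stretch chosen after the values were seen, had r from 0.80 to 0.97 with the transcript, and the other 10 in its window from -0.49 to 0.89. For the nearest peaks of the other tested genes r was 0.86 for Hp, 0.84 for Lcn2, 0.79 for Il6, 0.79 for C3, 0.75 for Steap4 and 0.30 for Ptx3. These 6 points share 2 genotypes and are given as a description.

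**Figure D5:**
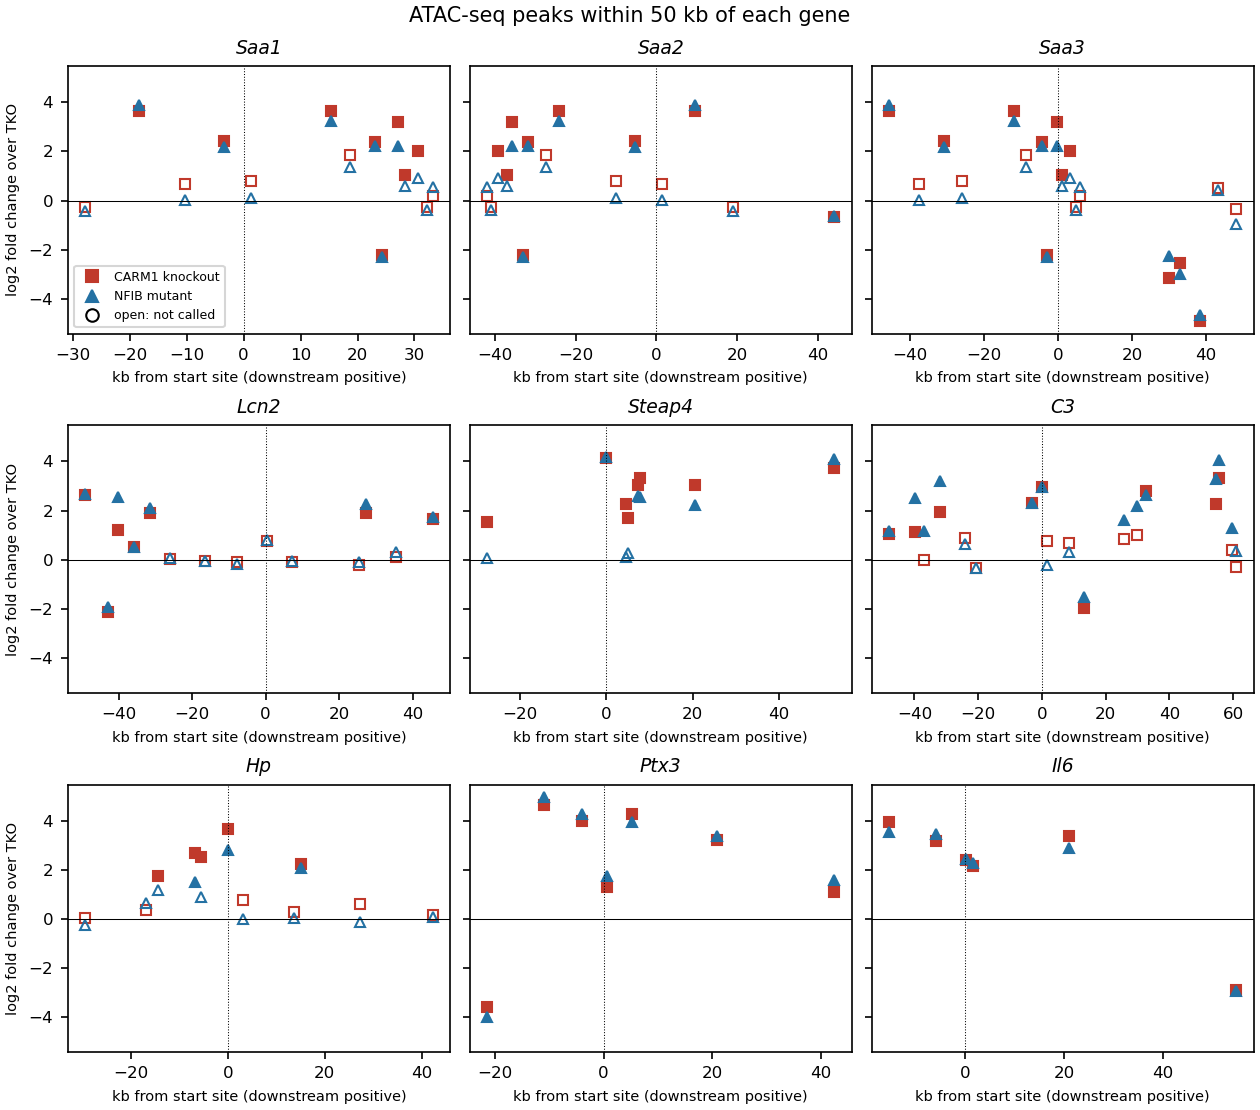
Log2 fold change of each ATAC-seq peak within 50 kb of each gene against its distance from the start site in kilobases, for the CARM1 knockout (red squares) and the NFIB mutant (blue triangles), with open symbols for peaks not called. All 8 peaks around Steap4 were called higher in the CARM1 knockout, and closing peaks are few except around Saa3.

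Over all their peaks, start sites included, Steap4, Ptx3 and Il6 had the largest shares that opened in the CARM1 knockout. All 8 peaks around Steap4 opened in the CARM1 knockout and 5 in the NFIB mutant, 100% and 62.5%, against 38.7% and 39.3% of all peaks. Around Ptx3, 6 of 7 opened in both mutants, and around Il6 5 of 6, or 85.7% and 83.3%, against 35% of all peaks. The remaining peak of Ptx3 and that of Il6 closed in both mutants. The largest rise of the 84 peaks, as the mean of both mutants, was 10922 bp upstream of Ptx3, in an intron of Veph1 (chr3:66208288-66209689). It rose from 0.0956, 0.278 and 1.06 CPM in TKO to 8.43 to 16.7 CPM in the mutants, by 4.63 ± 0.68 and 4.97 ± 0.69 (adjusted p = 0.000317 and 0.000201). At -15402 bp from the Il6 start site, in an intron of A230098N10Rik (chr5:29997404-29998021), a peak rose from 0.0637 to 0.169 CPM in TKO to 0.384 to 2.76 CPM, by 3.95 ± 0.83 and 3.52 ± 0.82 (adjusted p = 0.00215 and 0.00353).

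The central 300 bases of both peaks, plus strand of GRCm38.p6, are given because these were the peaks of largest change around Ptx3 and Il6, away from the start sites. Capitals mark C/EBP matches (TTGCNNAA) and AP-1 matches (TGANTCA).
Ptx3, chr3:66208838-66209137: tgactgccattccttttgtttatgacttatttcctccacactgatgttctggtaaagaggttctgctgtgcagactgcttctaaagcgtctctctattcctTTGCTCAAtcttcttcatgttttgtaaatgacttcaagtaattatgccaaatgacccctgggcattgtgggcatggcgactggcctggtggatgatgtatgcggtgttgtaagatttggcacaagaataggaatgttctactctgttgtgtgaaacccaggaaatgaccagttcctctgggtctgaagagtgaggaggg
Il6, chr5:29997562-29997861: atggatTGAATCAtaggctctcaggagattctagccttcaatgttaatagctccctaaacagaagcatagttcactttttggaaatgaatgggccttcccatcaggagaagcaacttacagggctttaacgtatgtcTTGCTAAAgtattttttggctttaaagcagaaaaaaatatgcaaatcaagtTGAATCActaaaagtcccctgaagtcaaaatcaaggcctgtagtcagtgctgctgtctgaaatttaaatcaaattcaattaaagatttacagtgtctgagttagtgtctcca
Among the 8 distinct peaks of largest change, counted for each member, 5 held a C/EBP match in their central 300 bases and 2 an AP-1 match. Of the 38 peaks around members that opened in both mutants, 16 or 42.1% held a C/EBP match and 8 or 21.1% an AP-1 match. The STAT motif was in 15.8%, against 11.4% of all peaks that opened in both, the NF-kB consensus in 5.26%, against 6.13%, the full NFI site in 0%, against 0.0283%, and its core TTGGC in 60.5%, against 46.6%. Of the 9 that closed in both, 3 or 33.3% held a C/EBP match, against 11.2% of all peaks that closed in both, and of all 84 peaks 29.8% did. Of all 38887 peaks that opened in both mutants, 19% held a C/EBP match and 41.7% an AP-1 match, and of all 111664 peaks 14.4% and 23.7%. These shares are descriptions of letters. The peaks of a member lie close together, and 1 region of the Saa cluster contributes several.

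The Saa cluster was mixed. Within 50000 bp of Saa3, 7 of 18 peaks opened and 4 closed in the CARM1 knockout, 38.9% and 22.2%, against 38.7% and 32.4% of all peaks. In the NFIB mutant 5 opened and 4 closed, 27.8% and 22.2%, against 39.3% and 34% of all peaks. The largest change was a closing, 38426 bp downstream of Saa3 (chr7:46676605-46677943), in intergenic sequence 4737 bp from the start site of Tph1, the enzyme that begins serotonin synthesis. It fell from 6.98, 20.4 and 25.9 CPM in TKO to 0.345 to 0.896 CPM in the mutants, by 4.91 ± 0.60 and 4.67 ± 0.60 on the log2 scale (adjusted p = 0.000126 and 0.000133). On the other side, an exonic peak of Hps5 (chr7:46760947-46761712) rose from 0.169 to 0.525 CPM in TKO to 2.09 to 5.28 CPM, by 3.64 ± 0.57 and 3.88 ± 0.58 (adjusted p = 0.000468 and 0.000306).

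Around Lcn2, 6 of 14 peaks opened and 1 closed in both mutants, 42.9% and 7.14%, against 35% and 30.8% of all peaks. The largest change was at -49141 bp from the start site, in an intron of Slc25a25 (chr2:32436620-32438167), from 1.37 to 3.13 CPM in TKO to 9.38 to 19.5 CPM in the mutants (2.65 ± 0.40 and 2.68 ± 0.40, adjusted p = 0.000389 and 0.000325). The 6 peaks closest to the Lcn2 start site were not called. Around C3, 8 of 18 opened in the CARM1 knockout and 12 in the NFIB mutant, 44.4% and 66.7%. Around Hp 5 and 3 of 11 did, 45.5% and 27.3%. Of all peaks, 38.7% and 39.3% opened. None of the 84 peaks differed between the mutants by edgeR, against 0% of all peaks. By the unadjusted p 6 of the 84 were under 0.05, 7.14% against 6.13% of all peaks, and DESeq2 called 1.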

How the data were processed

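RNA-seq and ATAC-seq libraries of 3 tumors for each of 3 genotypes were analysed. The authors deposited raw counts without normalization. For RNA-seq, reads had been trimmed with Trim Galore, mapped to GRCm38 (mm10) with HISAT2 and counted per gene with HTSeq. For ATAC-seq, reads had been mapped with Bowtie2, duplicates removed with Picard, and single reads counted with featureCounts 1.6.3 in peaks merged over all libraries. The methods name MACS2 as peak caller and the submitters' processing notes Genrich. The use of strand in the gene counts is not given in the sources used here. The 5 summary rows of the gene table were left out, of which reads outside genes made up 10.0 to 12.2% in TKO and 3.65 to 5.17% in the mutants. Columns were matched to samples by the genotype letter and replicate number. Counts were tested with edgeR 4.0.16 in R 4.3.3 (TMM scaling, filterByExpr, robust quasi-likelihood F-test, 9 libraries in 1 model, Benjamini-Hochberg adjustment over all genes or peaks). The fits were tested on simulated data. DESeq2 1.42.0, other filters and scalings, a replicate block and leaving out each library were alternatives. Named peaks were the peak nearest each start site and, among peaks within 50000 bp called alike in both mutants with a mean of at least 1 CPM, the peak of largest mean change. Genes named from each list were up to 4 called alike in both mutants with the largest mean change and at least 5 CPM, and 10 regulators fixed by role. Tnf, Mt2, Apcs, Fgg, C2, C4b, Cfb, Cd46, C1qa, C1qb, C1qc, Steap2, Steap3, Itgam and Slc22a17 were chosen after their values were seen. The members and lists were chosen with earlier results of these data known. Among the genes these rules name, 1 is not reported here. Interval widths cover counting error only.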

Additional observations from a re-analysis of the deposited data

How the results depend on the processing

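Fold changes and counts of calls were recomputed under the alternatives that apply to them. Scaling on start-site peaks and other windows concern ATAC-seq only, DESeq2 changes test and scaling together, and marker sums, correlations and motif shares were not recomputed. Saa1 and Saa2 were not testable. With at least 10 counts in every library, 1 of the 7 genes passed the filter, since most were near 0 in TKO. Under that filter 38 pathway genes were called higher and 3 lower in the CARM1 knockout and 42 and 4 in the NFIB mutant, where 4520 genes were called in all, and 5 genes between the mutants. Under it 38831 and 40676 peaks were called, of which 21 near the members were higher in the CARM1 knockout, 20 higher and 5 lower in the NFIB mutant, and 8 peaks between the mutants. Fewer features were tested there.

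DESeq2 called 540 genes between the mutants, with 1 pathway gene higher and 4 lower, and 1060 peaks, with 1 near the members lower. Library totals gave 7 peaks between the mutants and the fit of only the genotypes compared gave 16. Without a filter 5 pathway genes were lower in the CARM1 knockout. Within 10000 bp, 24 peaks were higher and 2 lower in the CARM1 knockout and 21 and 2 in the NFIB mutant. Library totals moved the median ATAC-seq change by 0.57 in both mutants, and scaling on start-site peaks by 0.36 and 0.44. Of all peaks called, the share that opened was 54.4% and 53.6% in the 2 mutants, 65.9% and 64.3% with library totals. Of all genes called, 52.9% and 48.7% were higher, and 39.5% and 35.9% with library totals.

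Replicate numbers did not pair samples across genotypes (correlation of deviations -0.30 to 0.12 in RNA-seq and -0.14 to 0.12 in ATAC-seq). With the replicate block, 4 pathway genes were lower in the CARM1 knockout and the C3 difference between the mutants was 0.020. The NFIB mutant change was 2.06 at the Saa3 start site, where the call was lost (edgeR adjusted p = 0.115), and -0.0034 at Saa2.

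Differences near 0 changed sign. For C3 between the mutants they were 0.0028 with at least 10 counts, 0.039 with library totals and 0.0082 with only the genotypes compared. At Saa1 and Saa2 in the NFIB mutant DESeq2 gave -0.038 and -0.12. Leaving out 1 library at a time gave, between the mutants, -1.31 to 4.35 for Saa3, -5.01 to 1.66 for Lcn2, -0.50 to 0.69 for Steap4, -1.25 to 0.54 for C3, -0.78 to 0.72 for Hp and -1.96 to 2.56 for Il6, with 0 to 2 genes and 0 to 4 peaks called. At the nearest peaks it gave -0.33 to 2.06 for Saa3, -0.95 to 0.34 for Lcn2, -0.20 to 0.075 for Steap4, -0.40 to 0.18 for C3 and -0.15 to 0.085 for Il6. Against TKO it gave -0.14 to 1.14 at Lcn2 in the CARM1 knockout, and -0.12 to 0.33 at Saa1 and -0.086 to 0.23 at Saa2 in the NFIB mutant. Pathway genes called lower ranged from 4 to 9 in the CARM1 knockout and from 4 to 10 in the NFIB mutant. The cause was not tested.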
